A study of Homo sapiens with 11 samples.

Results

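The SR and hnRNP splicing factors are taken here as 41 genes, out of 60676 genes in the count table, whose mRNAs were followed through hypoxia in RWPE1 cells. They are the protein-coding genes whose symbol starts with SRSF or HNRNP, with TRA2A, TRA2B and CLK1 to CLK4 added, that held 100 or more counts over the 11 libraries. They comprise 11 SR proteins, 2 TRA2 proteins, 24 hnRNP proteins and 4 CLK kinases. Of 45 genes with such names, SRSF12, HNRNPCL3, HNRNPCL4 and HNRNPUL2-BSCL2 fell under 100 counts. RWPE1 is an immortalized line of non-tumorigenic prostate epithelial cells. RNA was sequenced from normoxic cells (0 h, 3 libraries) and from cells kept at 1% oxygen for 6 h (3 libraries), 12 h (3 libraries) and 24 h (2 libraries, another being not analysed here). All cells grew in serum-free keratinocyte medium with pituitary extract and epidermal growth factor. The medium of the hypoxic cells also received 10 mM HEPES, so that oxygen and buffer changed together and their effects cannot be told apart.

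SR proteins bind exonic sequences through RNA recognition motifs and recruit the spliceosome through a domain rich in arginine and serine, and they mostly favour exon inclusion. The hnRNP proteins coat nascent transcripts and often act in the opposite direction, while TRA2 proteins are SR-like activators. CLK kinases phosphorylate the arginine and serine repeats in the nucleus, which releases SR proteins from nuclear speckles. Many genes of these families limit their own level by producing transcripts that keep an intron or contain a poison exon and are degraded. The counts add all transcripts of a gene, so coding and non-coding forms were not told apart.

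Between 27496009 and 49488345 reads were counted per library. Values are counts per 1000000 (CPM) after scaling with TMM factors, which were highest in normoxia (up to 1.32) and lowest, at 0.539, in the second library at 24 h. Genes count as called if their adjusted p was under 0.05 in the quasi-likelihood test of edgeR, with Benjamini-Hochberg adjustment across the 19981 genes tested. The ± after a log2 fold change is its standard error. The labels do not say that replicates were separate cultures, so the p-values measure the spread between these libraries, which may be technical. The 2 libraries at 24 h stood apart: replicate 2 exceeded replicate 1 by a median of 0.24 (log2) in the shortest genes (4973 genes of up to 1233 bases), fell below it (-0.30) in the longest (4971 genes), and exceeded it by 0.18 in the splicing factors. Values at 24 h without replicate 2 are given for most of the genes and families described. Fits without either 24 h library leave 1 library at that time, with its spread taken from the other times. Calls kept, gained or lost in such fits rest on that library. Epithelial markers were present (KRT5 at 6077 to 15881 CPM), the 4 endothelial markers did not pass the filter, COL1A1 was the only 1 of 5 stromal markers that did (27.7 to 60.5 CPM), and 3 of 5 leukocyte markers passed at no more than 3.38 CPM (CD14 and CD79A higher and PTPRC lower at each time). The part of these traces in the results was not tested. All 6 hypoxia genes chosen as a check, CA9 and SLC2A3 among them, rose at each time. In bulk RNA, fewer cells with a transcript and less transcript per cell cannot be told apart.

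All 41 genes passed the filter on low counts. At 6 h, 23 of them were higher and 6 lower than in normoxia, where 52.8% of all tested genes were called (25.1% higher and 27.7% lower). At 12 h, 22 were higher and 4 lower (51.2% of all genes called, 24.2% higher and 27.1% lower), and at 24 h 25 were higher and 3 lower (61.2% called, 29.9% higher and 31.3% lower). The median log2 fold change of the 41 genes was 0.43, 0.45 and 0.62 at 6, 12 and 24 h, beside -0.0021, -0.033 and -0.065 over all tested genes. Higher values at all 3 times were called in 15 of the 41 genes (14.8% of all genes) and lower values at all 3 times in 1 gene, SRSF5 (17.9% of all genes). SRSF8, HNRNPA0 and HNRNPCL2 were called at none of the 3 times. Every hypoxic library lay above every normoxic one in 25, 29 and 31 of the 41 genes at 6, 12 and 24 h, and below in 7, 5 and 6, where the libraries did not overlap for 69.6%, 72.3% and 73.0% of all tested genes. The split rests on the scaling. With library size alone the median of all genes moved to -0.32, -0.50 and -0.97. The called splicing factors were then 10 higher and 8 lower at 6 h. At 12 h they were 5 higher and 7 lower, and at 24 h 3 higher and 14 lower. That setting called 9843, 10560 and 13527 of the 19981 tested genes, of which 27.6%, 20.0% and 16.4% were higher. Counts with library size alone given below are to be read beside these shares. Directions below are therefore relative to the typical gene.

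**Figure D1:**
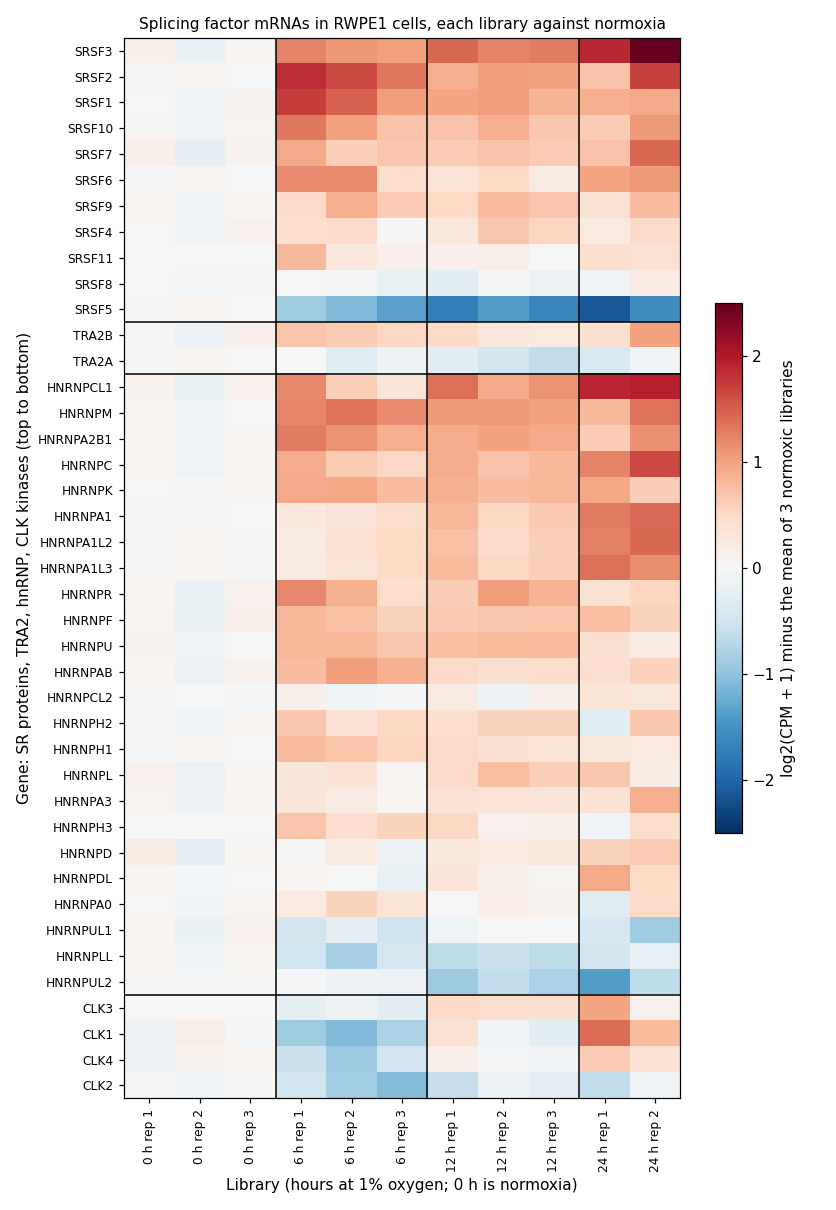
Each row is 1 of the 41 splicing factor genes and each column 1 of the 11 libraries, and colour gives log2(CPM + 1) minus the mean of the 3 normoxic libraries. The rows of SRSF3, SRSF1 and HNRNPM are red in all 8 hypoxic columns, SRSF5 is blue in all of them, and CLK1 and CLK4 are blue at 6 h and red at 24 h; with library size alone the rows at 24 h shift downward by about the median of all genes, -0.97.

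The CLK kinases were lower early in hypoxia and, for most of them, higher late. CLK1 and CLK4, close relatives whose own introns are known to be retained in transcripts kept in the nucleus, and CLK2 were lower at 6 h, none of the 4 kinases was called at 12 h, and CLK1, CLK3 and CLK4 were higher at 24 h by the TMM scaling. Without 24 h replicate 1 the 24 h values of CLK1, CLK2, CLK3 and CLK4 were 0.74, -0.15, 0.045 and 0.32. Without replicate 2 they were 1.38, -0.66, 0.99 and 0.64. With library size alone no kinase was called higher at 24 h and 1 was lower. Of all tested genes 25.1%, 24.2% and 29.9% were higher at the 3 times and 27.7%, 27.1% and 31.3% lower. The median log2 fold change of the kinases was -0.75, 0.016 and 0.57. For 12 h the count of 0 is edgeR's, with 1 gene at an unadjusted p under 0.05. DESeq2 called 1 kinase at that time, limma-voom 0, and limma-voom with sample quality weights 2. At 24 h the same methods called 3, 3 and 1 kinases higher and 0 lower. Over all genes they called 10426, 10378 and 14908 at 12 h, and 12269, 12044 and 6169 at 24 h.

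CLK1 (ENSG00000013441, on GRCh38, as for all positions here, chromosome 2, 200853009 to 200864691, minus strand) stood at 48.5, 58.9 and 51.4 CPM in normoxia. It stood at 27.9, 23.9 and 30.1 CPM at 6 h, at 69.0, 50.5 and 43.7 CPM at 12 h, and at 140.0 and 91.7 CPM at 24 h. All 6 h libraries lay below and both 24 h libraries above the normoxic range, while the 12 h libraries overlapped it. The log2 fold change was -0.96 ± 0.20 at 6 h (adjusted p = 0.00153 by edgeR), 0.04 ± 0.20 at 12 h (adjusted p = 0.884) and 1.13 ± 0.22 at 24 h (adjusted p = 0.000682). Without 24 h replicate 2 the last value was 1.38 and without replicate 1 it was 0.74.

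CLK4 (ENSG00000113240, chromosome 5, 178602664 to 178630615, minus strand) followed the same course at a lower level. Its normoxic libraries held 21.2, 25.2 and 24.8 CPM, those at 6 h 15.9, 12.1 and 16.6, those at 12 h 26.1, 22.7 and 22.1, and those at 24 h 37.4 and 30.8. Again the 6 h libraries lay below normoxia, the 12 h libraries overlapped it and the 24 h libraries lay above it. By edgeR the log2 fold change was -0.67 ± 0.16 at 6 h (adjusted p = 0.00338), -0.0061 ± 0.16 at 12 h (adjusted p = 0.977) and 0.53 ± 0.17 at 24 h (adjusted p = 0.0192). The call at 24 h was lost on omitting 24 h replicate 1 (0.32, adjusted p = 0.149) or, from normoxia, replicate 1 (0.44, adjusted p = 0.0797), and was kept without 24 h replicate 2 (0.64). With library size alone the sign at 24 h turned to -0.36.

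CLK2 (ENSG00000176444, chromosome 1, 155262868 to 155278491, minus strand) fell at 6 h and was not called afterwards. Its libraries held 34.4, 32.2 and 34.2 CPM at 0 h, 23.8, 18.1 and 15.3 at 6 h, 22.4, 30.6 and 28.5 at 12 h, and 21.6 and 31.5 at 24 h. All 8 hypoxic libraries lay below the normoxic ones. The log2 fold change was -0.82 ± 0.19 (edgeR, adjusted p = 0.0035), -0.31 ± 0.19 (adjusted p = 0.197) and -0.34 ± 0.22 (adjusted p = 0.188) at 6, 12 and 24 h. Without 24 h replicate 2 the 24 h value was -0.66 and without replicate 1 it was -0.15, each from 1 library at that time.

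CLK3 (ENSG00000179335, chromosome 15, 74598500 to 74645414, plus strand) held 47.6, 48.4 and 48.3 CPM at 0 h, 40.7, 44.0 and 39.3 at 6 h, 68.2, 65.6 and 63.8 at 12 h, and 96.6 and 51.6 at 24 h. The 12 h libraries were tight and above normoxia, whereas the pair at 24 h lay on either side of them. The log2 fold change was -0.22 ± 0.18 at 6 h (edgeR, adjusted p = 0.332), 0.45 ± 0.18 at 12 h (adjusted p = 0.0544) and 0.62 ± 0.20 at 24 h (adjusted p = 0.0175). That call rests on 24 h replicate 1, without which the value was 0.045 (adjusted p = 0.764), while without replicate 2 it was 0.99; with library size alone it was -0.20.

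**Figure D2:**
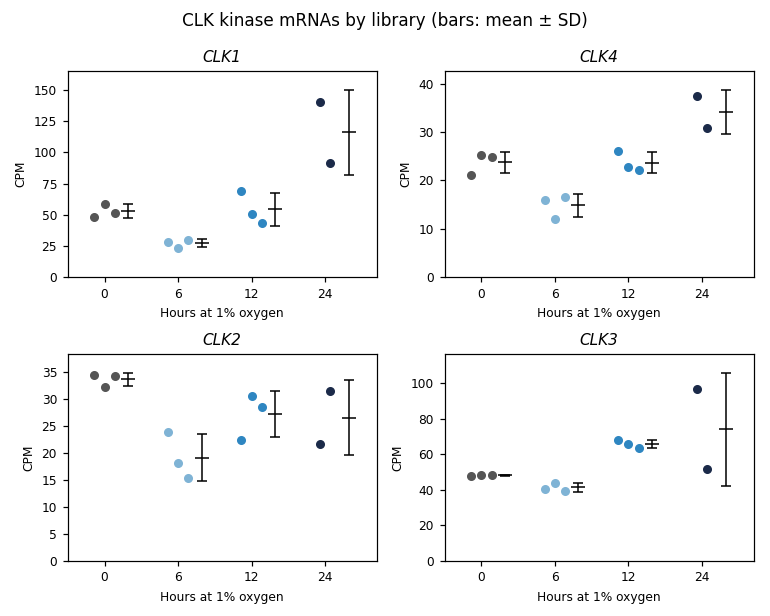
CPM of CLK1, CLK4, CLK2 and CLK3 (vertical axis, from 0) against hours at 1% oxygen, with 1 point per library and the mean ± SD beside them. CLK1 and CLK4 sit below normoxia at 6 h and above it at 24 h on this TMM scale, CLK2 stays below its 3 normoxic points, and the CLK3 points at 24 h are 96.6 and 51.6 CPM; with library size alone CLK3 and CLK4 at 24 h turn to -0.20 and -0.36 (log2).

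Hypoxia-inducible factors bind DNA at sites built around ACGTG or GCGTG, and basic helix-loop-helix proteins such as MYC bind CACGTG. CLK1, CLK2 and CLK4 were the kinases called lower at 6 h, and SRSF3 was the SR protein with the largest rise at 24 h. These genes and the motifs were chosen after the values were seen. The stretches just upstream of these genes are shown. They are RefSeq promoter sequences on GRCh38.p14, trimmed of bases in annotated exons and written 5′ to 3′ on the gene's strand. Capitals mark these 3 motifs on either strand, so that a motif on the opposite strand is seen as its reverse complement, and a CACGTG, which reads the same on both strands, counts as 1 CACGTG and as 2 ACGTG. The RefSeq starts of CLK2 and CLK4 lie inside the longer gene spans given above.
CLK1 (chr2:200864692-200864908, minus strand): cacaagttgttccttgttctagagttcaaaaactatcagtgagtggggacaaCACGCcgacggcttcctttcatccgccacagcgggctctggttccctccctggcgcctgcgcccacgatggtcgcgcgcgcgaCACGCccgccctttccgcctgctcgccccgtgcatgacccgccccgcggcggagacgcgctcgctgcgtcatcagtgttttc
CLK2 (chr1:155273505-155273754, minus strand): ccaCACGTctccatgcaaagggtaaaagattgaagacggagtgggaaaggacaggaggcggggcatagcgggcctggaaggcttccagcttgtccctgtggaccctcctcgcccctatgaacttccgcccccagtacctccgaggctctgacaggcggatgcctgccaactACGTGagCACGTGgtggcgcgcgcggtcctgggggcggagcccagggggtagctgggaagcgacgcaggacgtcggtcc
CLK4 (chr5:178627113-178627300, minus strand): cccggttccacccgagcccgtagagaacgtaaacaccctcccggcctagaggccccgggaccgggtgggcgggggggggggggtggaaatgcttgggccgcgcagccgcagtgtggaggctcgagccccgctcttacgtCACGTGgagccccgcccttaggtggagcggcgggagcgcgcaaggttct
SRSF3 (chr6:36594112-36594352, plus strand): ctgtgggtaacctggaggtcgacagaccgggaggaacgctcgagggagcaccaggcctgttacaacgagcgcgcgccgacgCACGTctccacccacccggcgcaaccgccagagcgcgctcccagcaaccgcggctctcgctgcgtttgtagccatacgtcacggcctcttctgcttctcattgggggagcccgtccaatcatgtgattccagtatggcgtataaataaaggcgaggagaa

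The CLK1 stretch held 2 GCGTG and no ACGTG, and that of SRSF3 held 1 ACGTG. That of CLK2 held 4 ACGTG and that of CLK4 held 2, in each of which 2 come from the strands of 1 CACGTG. The promoter of CLK3, not shown, held 1 GCGTG and 0 ACGTG in the full 250 bases before the start. Of the 41 genes, 37 had a promoter in the RefSeq table. Over the full 250 bases before the start, ACGTG was present in 17 of these 37 (45.9%) and in 18.7% of all 27305 promoters, GCGTG in 24 (64.9%, against 31.9%) and CACGTG in 8 (21.6%, against 6.49%). The letters CCAAT, a general promoter element, were in 18 (48.6%, against 33.0%). The splicing factor promoters were also richer in G and C, with a median of 64.8% against 58%, and the part of base composition in these shares was not tested. A match is a description of letters and not of binding.

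Among the SR proteins, 8 of 11 were higher and 1 lower at 6 h, 7 and 1 at 12 h, and 7 and 1 at 24 h. Of all tested genes 25.1%, 24.2% and 29.9% were higher and 27.7%, 27.1% and 31.3% lower. The median log2 fold changes of the SR proteins were 0.76, 0.67 and 0.87. Leaving out 24 h replicate 2 gave a median of 0.63 at 24 h. With library size alone the split at 24 h was 1 higher and 3 lower (median -0.087, beside -0.97 over all genes). SRSF1, SRSF2, SRSF3, SRSF7, SRSF9 and SRSF10 were called higher at every time.

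SRSF3 (ENSG00000112081, chromosome 6, 36594353 to 36605600, plus strand), the smallest SR protein, also acts in mRNA export and polyadenylation, and it rose most at 24 h. Its libraries held 148, 120.1 and 140.2 CPM in normoxia, 323, 290.0 and 276 at 6 h, 369, 321 and 337 at 12 h, and 505 and 897 at 24 h. Every hypoxic library lay above normoxia, the 6 h and 12 h libraries overlapped, and both 24 h libraries lay above all others. The log2 fold change was 1.12 ± 0.20 at 6 h (edgeR, adjusted p = 0.000447), 1.33 ± 0.20 at 12 h (adjusted p = 0.000174) and 2.36 ± 0.22 at 24 h (adjusted p = 3.5e-06), or 5.15-fold. Without 24 h replicate 2, the higher of the pair, the last value was 1.87, and without replicate 1 it was 2.66.

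SRSF2, a marker protein of nuclear speckles, and SRSF1, the founding SR protein, had their highest mean at 6 h. The step from 6 to 12 h was not called for SRSF2 (-0.63, adjusted p = 0.11) or SRSF1 (-0.49, adjusted p = 0.104, both by edgeR). At 24 h the SRSF2 libraries overlapped those at 6 h. SRSF2 (ENSG00000161547, chromosome 17, 76734115 to 76737333, minus strand) held 56.1, 59.3 and 57.6 CPM at 0 h, 209.8, 184 and 145 at 6 h, 109.7, 120.0 and 117 at 12 h, and 95.7 and 190 at 24 h. No hypoxic library reached down to the normoxic range. Its log2 fold change was 1.64 ± 0.22 (edgeR, adjusted p = 6.38e-05), 1.00 ± 0.21 (adjusted p = 0.0021) and 1.31 ± 0.23 (adjusted p = 0.000429) at the 3 times. The value at 24 h was 0.71 without replicate 2 and 1.66 without replicate 1. Exons of MFSD11 on the other strand overlap 27.7% of the exonic length of SRSF2, and the strand setting of the counting was not stated.

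SRSF1 (ENSG00000136450, chromosome 17, 58000919 to 58007346, minus strand) held 34.3, 31.9 and 36.3 CPM at 0 h, 115.6, 96.4 and 71.6 at 6 h, 68.3, 71.4 and 62.1 at 12 h, and 65.2 and 67.1 at 24 h. All hypoxic libraries lay above normoxia, and the 6 h libraries spread over the widest range. On the log2 scale the difference from normoxia was 1.47 ± 0.16 at 6 h (edgeR, adjusted p = 1.82e-05), 0.98 ± 0.16 at 12 h (adjusted p = 0.000402) and 0.95 ± 0.18 at 24 h (adjusted p = 0.000594), and 0.91 without 24 h replicate 2. Of its 75-base stretches, 31.4% also occur in other annotated genes.

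SRSF10 (ENSG00000188529, chromosome 1, 23964347 to 23980927, minus strand), known as a splicing repressor when dephosphorylated in heat shock, held 55.4, 50.8 and 56.8 CPM at 0 h, 137.2, 111.2 and 89.0 at 6 h, 89.0, 102.2 and 86.6 at 12 h, and 85.1 and 114.1 at 24 h. Again no hypoxic library overlapped the normoxic ones. Log2 fold changes were 1.05 ± 0.17 (edgeR, adjusted p = 0.000285), 0.77 ± 0.17 (adjusted p = 0.00268) and 0.87 ± 0.19 (adjusted p = 0.00154), the last 0.63 without replicate 2 and, with library size alone, -0.087.

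SRSF7, an SR protein with a zinc knuckle, and SRSF9 were the other genes called higher at all 3 times, with log2 fold changes between 0.59 and 1.13. At 24 h SRSF7 was at 0.70 without replicate 2 and at 1.39 without replicate 1. The call for SRSF9 at 24 h was lost without 24 h replicate 2 (0.36, adjusted p = 0.095 by edgeR), its 24 h value turned to -0.37 with library size alone, and exons of GATC overlap 43.6% of its length on the other strand. SRSF6 was called at 6 h (0.98) and at 24 h (1.03, and 0.97 without replicate 2) but not at 12 h (0.35 ± 0.18, adjusted p = 0.125 by edgeR), where library size alone gave -0.12.

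SRSF5 (ENSG00000100650, chromosome 14, 69726900 to 69772005, plus strand) moved against the rest of its family. Its libraries held 137.4, 146 and 139 CPM in normoxia, 75.3, 64.6 and 54.2 at 6 h, 41.6, 53.0 and 44.1 at 12 h, and 31.7 and 47.0 at 24 h. All hypoxic libraries lay below the normoxic ones and all 12 h libraries below all 6 h libraries. Its fitted log2 fold change was -1.12 ± 0.17 at 6 h (edgeR, adjusted p = 0.000183), -1.61 ± 0.18 at 12 h (adjusted p = 2.09e-05) and -1.84 ± 0.21 at 24 h (adjusted p = 1.28e-05). Without 24 h replicate 2 it was -2.17 and without replicate 1 -1.64. No other gene on the other strand overlaps its exons, and none of its stretches of 75 bases occurs in another annotated gene.

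SRSF4, SRSF11 and SRSF8 were the other genes with low values. SRSF4 (ENSG00000116350, chromosome 1, 29147743 to 29181900, minus strand) held 111.0, 103.7 and 120.8 CPM at 0 h, 151, 155 and 114.4 at 6 h, 135, 179 and 162 at 12 h, and 132.0 and 156 at 24 h. Only the 12 h value passed the test (0.51 ± 0.16, edgeR, adjusted p = 0.0183), and this call was lost without the first or second normoxic library (0.49 and 0.45) or 12 h replicate 2 or 3 (0.38 and 0.49). The other values were 0.32 ± 0.16 at 6 h (adjusted p = 0.103) and 0.37 ± 0.18 at 24 h (adjusted p = 0.0878), and with library size alone the 24 h value was -0.57.

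SRSF11 (ENSG00000116754, chromosome 1, 70205682 to 70253052, plus strand) held 114.3, 115.1 and 114.7 CPM at 0 h, 201.2, 137 and 126 at 6 h, 124, 128.0 and 114.6 at 12 h, and 157 and 149.8 at 24 h. It was called at 6 h alone (0.43 ± 0.16, edgeR, adjusted p = 0.0413), a call kept in 4 of 11 fits with a library left out and at 0.20 (adjusted p = 0.209) without 6 h replicate 1. Its values at 12 and 24 h were 0.09 ± 0.16 (adjusted p = 0.656) and 0.42 ± 0.18 (adjusted p = 0.0627), which turned to -0.37 and -0.49 with library size alone.

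SRSF8 (ENSG00000263465, chromosome 11, 95066919 to 95071225, plus strand), a copy related to SRSF2, ranged from 17.7 to 25.3 CPM over all 11 libraries. All 3 hypoxic groups overlapped the normoxic one. Its log2 fold changes were -0.08 ± 0.14, -0.15 ± 0.14 and 0.07 ± 0.15 (edgeR, adjusted p = 0.637, 0.373 and 0.718).

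**Figure D3:**
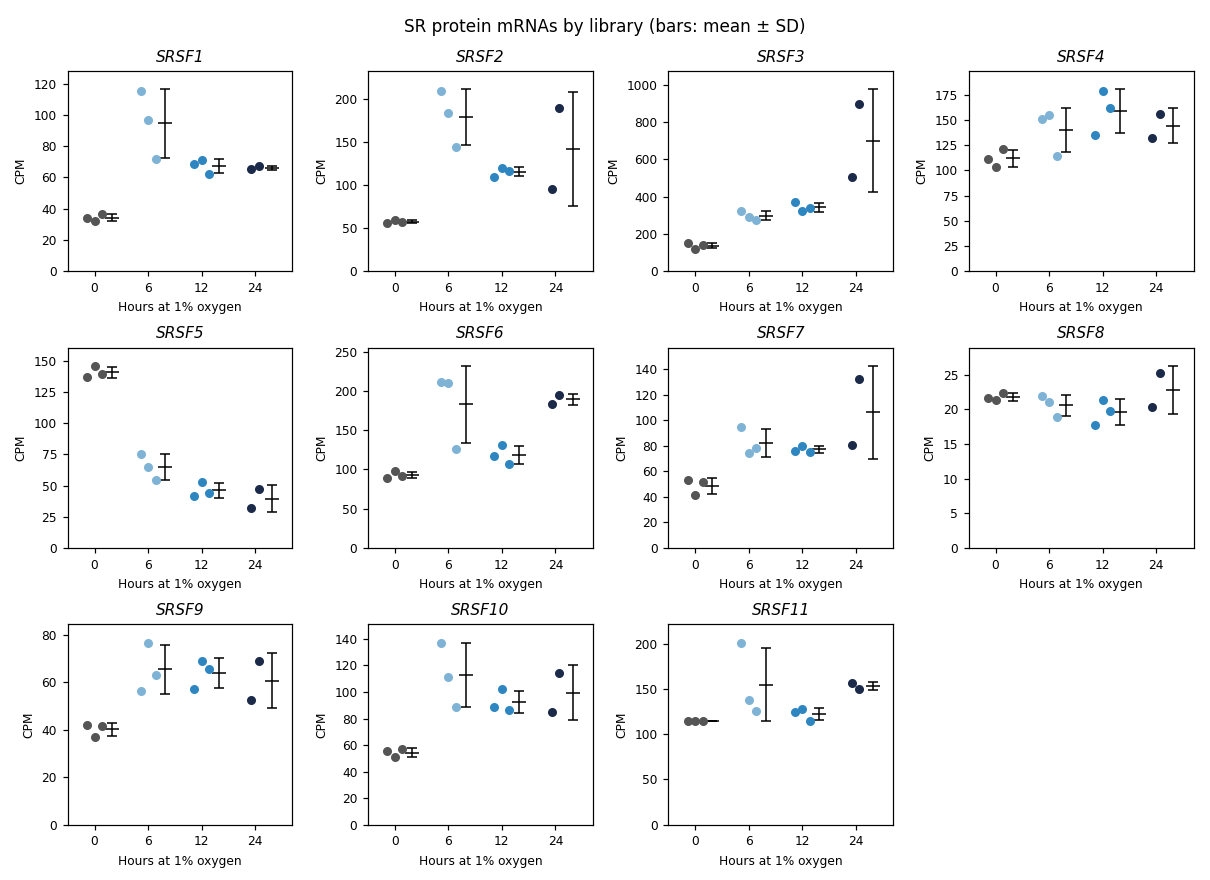
CPM of the 11 SR protein genes (vertical axes, each from 0) against hours at 1% oxygen, with 1 point per library and the mean ± SD beside them. SRSF3 rises from 120.1 to 148 CPM in normoxia to 505 and 897 at 24 h. SRSF1 and SRSF2 have their highest mean at 6 h, and SRSF5 falls below all of its normoxic points. These genes keep their direction against normoxia with library size alone. That scaling turns SRSF4, SRSF8, SRSF9, SRSF10 and SRSF11 at 24 h and SRSF6 and SRSF11 at 12 h below 0.

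Ratios within a library do not depend on scaling, and those given here were chosen after the values were seen. SRSF3 and SRSF5 were counted about equally in normoxia, with ratios of 1.08, 0.82 and 1.01. The ratio was 4.29, 4.49 and 5.10 at 6 h, 8.86, 6.06 and 7.65 at 12 h, and 15.9 and 19.1 at 24 h. The 4 groups did not overlap, and the pair at 24 h kept the same side although the libraries stood apart. Of all counts on SRSF genes, SRSF5 took 15.9% to 17.7% in normoxia and 2.25% and 2.30% at 24 h, and SRSF3 took 14.6% to 17.2% and then 35.9% and 44.0%.

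**Figure D4:**
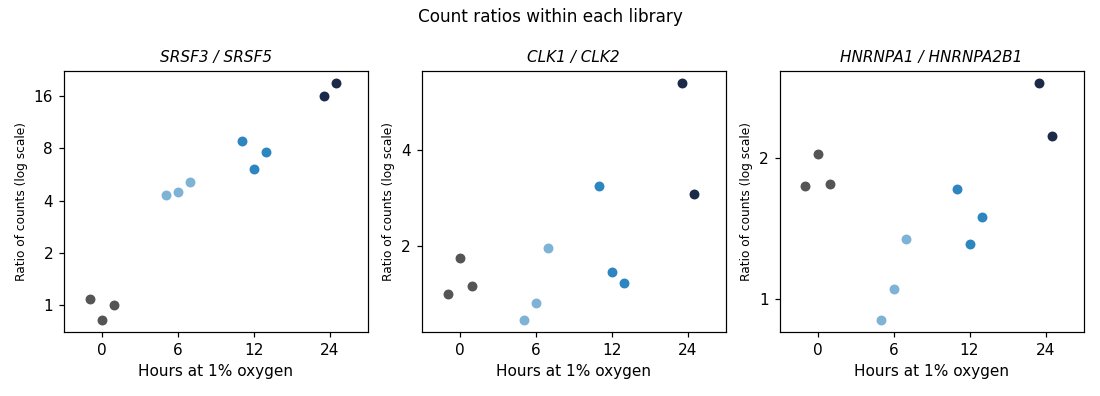
Ratios of counts within each library on log axes, against hours at 1% oxygen, with 1 point per library. SRSF3 over SRSF5 climbs from near 1 to 15.9 and 19.1, CLK1 over CLK2 is highest in 24 h replicate 1 (6.49), and HNRNPA1 over HNRNPA2B1 drops at 6 h and is highest at 24 h.

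The TRA2 proteins bind enhancers rich in GAA, and the 2 genes did not move together. TRA2B (ENSG00000136527, chromosome 3, 185914558 to 185938103, minus strand) held 74.3, 66.0 and 80.1 CPM at 0 h, 119.7, 114.6 and 105.8 at 6 h, 102.7, 89.1 and 86.7 at 12 h, and 96.4 and 148 at 24 h. All of its hypoxic libraries lay above normoxia. By edgeR it rose at 6 h (0.63 ± 0.16, adjusted p = 0.00623) and at 24 h (0.73 ± 0.18, adjusted p = 0.00354), with 0.34 ± 0.16 at 12 h (adjusted p = 0.0998). Without 24 h replicate 2 its 24 h value was 0.37. With library size alone the values at 12 and 24 h were -0.13 and -0.25.

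TRA2A (ENSG00000164548, chromosome 7, 23504780 to 23532041, minus strand) held 36.3, 39.7 and 37.5 CPM at 0 h, 37.4, 30.6 and 34.5 at 6 h, 31.2, 27.2 and 24.4 at 12 h, and 28.7 and 35.9 at 24 h. Its 12 h libraries lay below normoxia and its 6 h libraries overlapped it. Relative to normoxia the log2 fold change was -0.15 ± 0.14 at 6 h (edgeR, adjusted p = 0.408), -0.46 ± 0.14 at 12 h (adjusted p = 0.0186) and -0.23 ± 0.16 at 24 h (adjusted p = 0.233). The call at 12 h was lost on omitting normoxic replicate 2 (-0.43) or 12 h replicate 3 (-0.37). Without 24 h replicate 2 the 24 h value was -0.42 and without replicate 1 it was -0.13.

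Of the 24 hnRNP genes, 14 were higher and 2 lower at 6 h, 15 and 2 at 12 h, and 14 and 2 at 24 h. Beside them 25.1%, 24.2% and 29.9% of all genes were higher and 27.7%, 27.1% and 31.3% lower. Median log2 fold changes of the hnRNP genes were 0.46, 0.57 and 0.63, the last 0.58 without 24 h replicate 2. HNRNPA1L2, HNRNPA1L3, HNRNPCL1 and HNRNPCL2 are copies of other members. Leaving these 4 out, a choice made after the values were seen, gave 11 higher and 2 lower, 12 and 2, and 11 and 2 of 20 genes, with medians of 0.55, 0.49 and 0.48. With library size alone the 24 genes gave 4 higher and 3 lower, 3 and 3, and 2 and 9. Limma-voom with sample quality weights called 9 higher and 2 lower at 24 h, with 6169 of all genes called.

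HNRNPM (ENSG00000099783, chromosome 19, 8444767 to 8489114, plus strand), which binds GU-rich RNA, held 98.1, 88.9 and 93.8 CPM in normoxia, 218, 242.2 and 214.5 at 6 h, 197.1, 197.4 and 188.0 at 12 h, and 164.8 and 240.7 at 24 h. Its hypoxic libraries all lay above the normoxic ones, those at 12 h lay below those at 6 h, and the pair at 24 h spanned both. Against normoxia this was a log2 fold change of 1.27 ± 0.15 (edgeR, adjusted p = 2.77e-05), 1.05 ± 0.15 (adjusted p = 0.000134) and 1.11 ± 0.16 (adjusted p = 9.41e-05), the last 0.80 without replicate 2.

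HNRNPA2B1 (ENSG00000122566, chromosome 7, 26171151 to 26201529, minus strand), an hnRNP of the core particle that also sorts RNAs for transport, held 401, 357 and 398 CPM at 0 h, 949.9, 841 and 719.6 at 6 h, 733, 777 and 742 at 12 h, and 599 and 846 at 24 h. The hypoxic libraries overlapped across times and none overlapped normoxia. On the log2 scale the difference from normoxia was 1.12 ± 0.17 (edgeR, adjusted p = 0.000176), 0.96 ± 0.17 (adjusted p = 0.000615) and 0.91 ± 0.19 (adjusted p = 0.00115), the last 0.62 without replicate 2 and, with library size alone, -0.061.

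HNRNPC (ENSG00000092199, chromosome 14, 21209136 to 21269494, minus strand), which binds runs of uridine, rose further with time. It held 407, 371 and 407 CPM at 0 h, 755, 614 and 564 at 6 h, 751, 644 and 690.2 at 12 h, and 939 and 1238 at 24 h. Both 24 h libraries lay above every other library. Its fitted log2 fold change was 0.71 ± 0.17 (edgeR, adjusted p = 0.00376), 0.82 ± 0.17 (adjusted p = 0.00171) and 1.46 ± 0.19 (adjusted p = 3.08e-05), the last 1.23 without replicate 2.

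HNRNPCL1 (ENSG00000179172, chromosome 1, 12847377 to 12848720, minus strand), a gene copy related to HNRNPC, had the largest log2 fold change of the family at 24 h. It held 8.97, 7.22 and 9.11 CPM at 0 h, 20.6, 13.2 and 10.7 at 6 h, 23.4, 17.1 and 19.5 at 12 h, and 34.0 and 35.2 at 24 h. All hypoxic libraries lay above normoxia, with the 24 h pair highest. Its log2 fold change was 0.81 ± 0.22 (edgeR, adjusted p = 0.00831), 1.25 ± 0.22 (adjusted p = 0.000639) and 2.04 ± 0.24 (adjusted p = 2.04e-05), the last 1.99 without replicate 2. In every library it held 0.019 to 0.036 counts for each count of HNRNPC, and 0% of its 75-base stretches and 7.46% of those of 36 bases occur in HNRNPC. Of its 75-base stretches, 44.1% occur in some other annotated gene, 29.4% in HNRNPCL2, so its level is uncertain too.

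HNRNPA1, a repressor of splicing and the most counted gene of the family, was not among those selected by size and was added after its values were seen. It was at 699 to 728 CPM at 0 h, 857 to 967 at 6 h, 1019 to 1261 at 12 h, and 1740.0 and 1886 at 24 h, each time above the one before. Relative to normoxia the log2 fold change was 0.35 ± 0.15 (edgeR, adjusted p = 0.0716), 0.67 ± 0.15 (adjusted p = 0.00304) and 1.35 ± 0.17 (adjusted p = 2.65e-05), the last 1.28 without 24 h replicate 2. HNRNPA1L2 and HNRNPA1L3 had 0.38 and 0.36 at 6 h, 0.61 and 0.64 at 12 h, and 1.36 and 1.28 at 24 h (1.25 and 1.36 without replicate 2), and both were called at all 3 times; the 6 h calls held in 4 of 11 fits with a library left out.

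These genes share sequence. HNRNPA1L2 held 0.18 to 0.20 counts for each count of HNRNPA1 in every library, and 35.9% of its 75-base stretches (41.0% for HNRNPA1L3) occur in HNRNPA1. All of those of HNRNPA1L2 (100%) occur in another annotated gene, ENSG00000273784, and 43.8% of those of HNRNPA1L3 occur in some other gene. Pseudogenes named for HNRNPA1 held 74.5% as many counts as the gene itself, those for HNRNPA3 34.9%, for HNRNPC 30.1% and for HNRNPL 21.4%. How reads with several matches were counted was not stated, so the levels of these genes and copies are uncertain.

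HNRNPK, HNRNPF and HNRNPAB completed the 9 hnRNP genes called higher at all 3 times, with log2 fold changes from 0.45 to 0.91, though the call of HNRNPAB at 12 h was lost without 0 h replicate 2 (0.37). Their 24 h values without replicate 2 were 0.95, 0.73 and 0.39. With library size alone they turned to -0.074, -0.23 and -0.44, as did HNRNPAB at 12 h (-0.023). HNRNPK binds runs of cytidine and HNRNPF runs of guanosine. Other genes, described after their values were seen, moved at some times. HNRNPU, a scaffold attachment factor, and HNRNPR were higher at 6 and 12 h (0.77 and 0.77, 0.88 and 0.86) and at 0.31 and 0.46 at 24 h, not called. The 24 h values of HNRNPU and HNRNPR were 0.38 and 0.37 without replicate 2, and 0.14 and 0.48 without replicate 1. HNRNPH1 and HNRNPH2 were also called at 6 and 12 h and HNRNPH3 at 6 h. The 24 h value of HNRNPH2 rested on the library, at 0.62 without replicate 1 and -0.32 without replicate 2. In the same fits HNRNPH3 was at 0.38 and -0.11, and HNRNPH1 at 0.18 and 0.24. The 24 h values of these 5 genes with library size alone were -0.59, -0.47, -0.66, -0.75 and -0.77, and HNRNPH1 and HNRNPH3 also turned at 12 h (-0.063 and -0.20). The call of HNRNPH1 at 12 h was lost without any 1 normoxic library or 12 h replicate 1 or 2 (0.37 to 0.42), and those of HNRNPH2 at 6 and 12 h were lost in 8 and 6 of 11 fits with a library left out (0.45 to 0.58). HNRNPA3, HNRNPD, also known as the mRNA decay factor AUF1, and its relative HNRNPDL were called at 24 h alone (0.66, 0.60 and 0.75), and HNRNPL at 12 and 24 h (0.62 and 0.45). The 24 h values of HNRNPA3, HNRNPD, HNRNPDL and HNRNPL without replicate 2 were 0.34, 0.55, 0.94 and 0.66. With library size alone they turned to -0.32, -0.32, -0.12 and -0.41. The 24 h call of HNRNPL was lost without replicate 1 (0.12, adjusted p = 0.506 by edgeR). The 24 h value of HNRNPL was 0.12 without 24 h replicate 1, and its call was also lost without any 1 normoxic library (0.38 to 0.50) or 12 h replicate 2 or 3 (0.41 and 0.45). Exons of NFE2L2 overlap 53.6% of HNRNPA3 on the other strand.

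**Figure D5:**
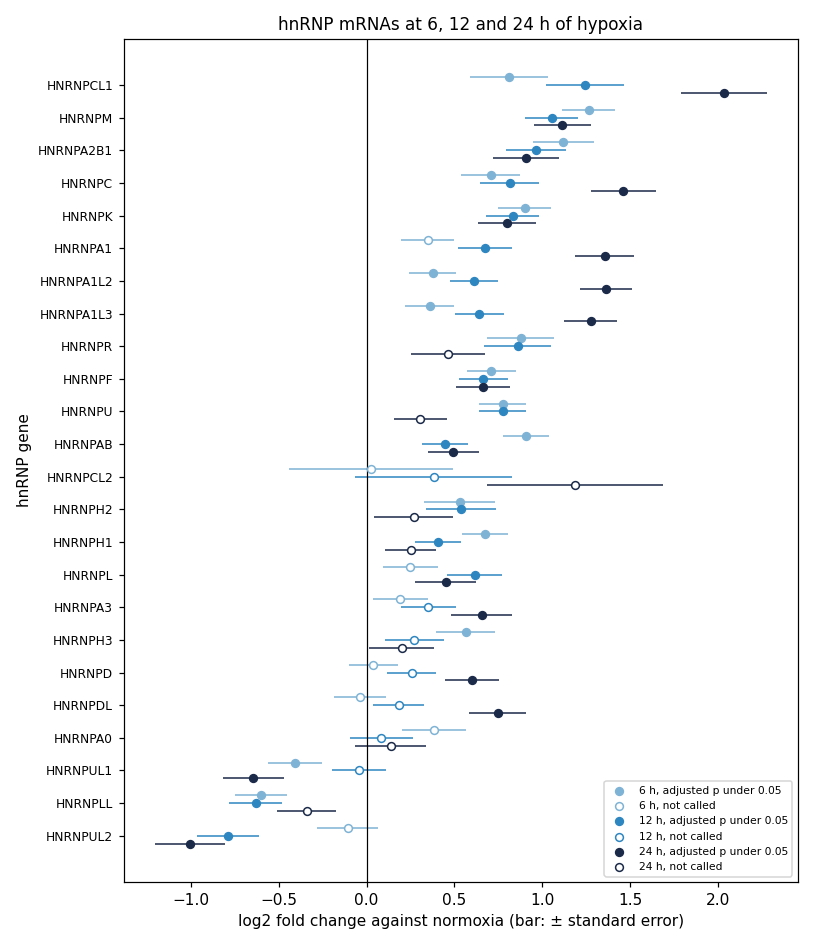
Log2 fold change against normoxia (horizontal axis, bar ± standard error) for the 24 hnRNP genes at 6, 12 and 24 h, with filled points where the adjusted p was under 0.05. HNRNPCL1, HNRNPC and the HNRNPA1 genes are highest at 24 h, HNRNPU and HNRNPR are filled at 6 and 12 h and open at 24 h, and HNRNPUL1, HNRNPLL and HNRNPUL2 lie at or below 0; with library size alone the values shift with the median of all genes by -0.32, -0.50 and -0.97, and 14 genes turn below 0 at 24 h, HNRNPA2B1, HNRNPK, HNRNPF and HNRNPAB among them.

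HNRNPUL2, HNRNPLL and HNRNPUL1 were the hnRNP genes that fell. HNRNPUL2 (ENSG00000214753, chromosome 11, 62712630 to 62727457, minus strand), a relative of HNRNPU, held 43.7, 41.2 and 43.3 CPM at 0 h and 41.3, 39.0 and 38.7 at 6 h. It then held 22.3, 27.4 and 24.4 CPM at 12 h and 15.7 and 27.0 at 24 h. The 6 h libraries overlapped normoxia and all later ones lay below. Against normoxia this was a log2 fold change of -0.11 ± 0.17 (edgeR, adjusted p = 0.622), -0.79 ± 0.17 (adjusted p = 0.00256) and -1.01 ± 0.20 (adjusted p = 0.000948), the last -1.47 without 24 h replicate 2 and -0.72 without replicate 1. Of its 75-base stretches, 42.9% also belong to the readthrough gene HNRNPUL2-BSCL2, which held 0 counts.

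HNRNPLL (ENSG00000143889, chromosome 2, 38561969 to 38603586, minus strand), known for the splicing of PTPRC in T cells, held 27.1, 24.2 and 27.4 CPM at 0 h, 18.3, 14.2 and 19.4 at 6 h, 16.4, 17.8 and 16.5 at 12 h, and 18.7 and 22.7 at 24 h. Every hypoxic library lay below the normoxic ones. On the log2 scale the difference from normoxia was -0.60 ± 0.15 (edgeR, adjusted p = 0.00478), -0.63 ± 0.15 (adjusted p = 0.00385) and -0.34 ± 0.17 (adjusted p = 0.0956). Leaving out 24 h replicate 2 the last value was -0.51, and leaving out replicate 1 it was -0.26. PTPRC itself was at 0.35 CPM or less.

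HNRNPUL1 (ENSG00000105323, chromosome 19, 41262496 to 41307787, plus strand), another relative of HNRNPU, held 207.6, 179 and 215 CPM at 0 h, 145, 168 and 139.9 at 6 h, 185.0, 199 and 199.8 at 12 h, and 149.5 and 106.9 at 24 h. The 12 h libraries overlapped normoxia, and those at 6 h and 24 h lay below it. Its fitted log2 fold change was -0.41 ± 0.15 (edgeR, adjusted p = 0.0381), -0.04 ± 0.15 (adjusted p = 0.83) and -0.64 ± 0.17 (adjusted p = 0.00626), the last -0.44 without 24 h replicate 2. The 6 h call did not survive omission of normoxic replicate 1 or 3 (-0.39 and -0.36), of replicate 1 or 3 at 6 h (-0.38 and -0.35), or of 12 h replicate 3 (-0.41).

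HNRNPA0 (ENSG00000177733, chromosome 5, 137745651 to 137754363, minus strand), which binds AU-rich mRNAs, held 165.8, 158.8 and 175 CPM at 0 h, 196, 244 and 211.0 at 6 h, 164, 187 and 177 at 12 h, and 135 and 232 at 24 h. Its 6 h libraries lay above normoxia and the others overlapped it. No time was called (0.38 ± 0.18, 0.08 ± 0.18 and 0.14 ± 0.20, edgeR, adjusted p = 0.0927, 0.722 and 0.573). Leaving out 24 h replicate 2 its 24 h value was -0.33, and leaving out replicate 1 it was 0.42. With library size alone the values at 12 and 24 h were -0.38 and -0.86. HNRNPCL2, at 0.12 to 0.56 CPM, was also not called.

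Levels between genes were compared per kilobase of the canonical transcript. In normoxia HNRNPA1 (189 ± 4.44 CPM per kilobase, SD, n = 3), HNRNPK (172 ± 6.85) and HNRNPH1 (157 ± 4.03) led, followed by HNRNPC (125 ± 6.56), HNRNPA2B1 (106 ± 6.80) and HNRNPA1L2 (102 ± 4.60). The last 2 differed by less than their spread, as did HNRNPF (94.9 ± 10.2) and SRSF5 (94.2 ± 3.10) below them. SRSF5 was the most abundant SR protein mRNA in normoxia, at rank 8 of the 41 genes, and stood at rank 19, 23 and 29 at 6, 12 and 24 h. SRSF3 went from rank 19 to 14, 11 and 8, and CLK1 from rank 23 to 33, 26 and 15. The SR protein genes summed to 825 to 872 CPM in normoxia, 1163 to 1598 at 6 h, 1192 to 1276 at 12 h, and 1408 and 2042 at 24 h.

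Between 6 and 12 h, 3 of the 41 genes were called (4.95% of all genes, 1.88% higher and 3.07% lower), CLK1 and CLK4 higher and HNRNPUL2 lower. The libraries did not overlap in 10 genes that were higher and 9 that were lower, beside 31.6% of all genes. Between 12 and 24 h, 10 were higher and 2 lower (28.4% of all genes called, 15.1% higher and 13.3% lower), and the libraries did not overlap in 15 genes that were higher and 4 that were lower (49.1% of all genes). CLK1 rose in both steps, by 0.99 ± 0.20 (edgeR, adjusted p = 0.0192) and 1.09 ± 0.22 (adjusted p = 0.00447). SRSF3 rose in the second step by 1.03 ± 0.21 (edgeR, adjusted p = 0.00515) and by 0.55 without 24 h replicate 2. The first call for CLK1 was lost without any 1 of the 12 h libraries or without 6 h replicate 1 or 2 (0.79 to 1.13). Fitting only the 2 time points compared gave 0 calls between 12 and 24 h by edgeR, with 11 of the 41 genes at an unadjusted p under 0.05. That fit called 0 of all tested genes, where the main fit called 5668. The calls given here come from the main fit, in which the spread is shared over all times.

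Of 45 core spliceosome genes, 27 were higher and 2 lower at 6 h, 31 and 1 at 12 h, and 34 and 2 at 24 h, with medians of 0.53, 0.63 and 0.89, beside 25.1%, 24.2% and 29.9% of all genes higher and 27.7%, 27.1% and 31.3% lower. The last count was 29 and 3 without 24 h replicate 2, and with library size alone the counts were 15 and 6, 12 and 5, and 15 and 14 (medians 0.21, 0.16 and -0.014). The highest were SNRPB and SNRPG, which encode Sm proteins of the small nuclear ribonucleoproteins, and SF3B6, a subunit that contacts the branch point. SNRPB had log2 fold changes of 1.38 ± 0.30 (edgeR, adjusted p = 0.00196), 1.72 ± 0.30 (adjusted p = 0.000552) and 3.11 ± 0.33 (adjusted p = 9.4e-06), but its 24 h libraries held 278 and 867 CPM, and the last value was 2.05 without replicate 2 and 3.65 without replicate 1. SNRPG and SF3B6 behaved likewise, with 2.81 and 2.31 at 24 h and 1.80 and 1.73 without replicate 2 (3.34 and 2.65 without replicate 1).

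Among 42 other splicing regulators, 11 were higher and 7 lower at 6 h, 14 and 8 at 12 h, and 15 and 13 at 24 h, with medians of 0.13, 0.14 and 0.16. That is 42.9%, 52.4% and 66.7% called, beside 52.8%, 51.2% and 61.2% of all genes. Leaving out 24 h replicate 2 made the last count 13 and 9, and with library size alone the counts were 7 and 11, 4 and 15, and 2 and 27. SFPQ (1.78, 1.54 and 1.73) and PSPC1 (0.99, 0.94 and 1.65), partners in paraspeckles, and RBM25 (1.54, 1.20 and 1.39) were the highest of those called at all 3 times. The lowest of those called at all 3 times were TIA1 (-1.61, -1.84 and -1.40), an activator of weak splice sites, CIRBP (-1.96, -1.43 and -0.78), a cold-inducible RNA-binding protein, and ESRP1 (-1.21, -0.89 and -0.80), an epithelial splicing regulator. Leaving out 24 h replicate 2 the 24 h values of TIA1, CIRBP and ESRP1 were -1.93, -1.26 and -0.60, and the call of CIRBP was lost without replicate 1 (-0.49, adjusted p = 0.0549 by edgeR).

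Of 7 other genes, SR kinases and nuclear importins, 4 were higher and 1 lower at 6 h, 6 and 1 at 12 h, and 3 and 1 at 24 h. That is 71.4%, 100% and 57.1% called beside 52.8%, 51.2% and 61.2% of all genes. With library size alone the counts were 3 and 1, 1 and 1, and 0 and 3. The 24 h median of 0.38 was 0.65 without 24 h replicate 2 and -0.053 without replicate 1. PRPF4B (1.64, 1.35 and 1.14), the importin TNPO1 (1.20, 0.67 and 0.70) and SRPK1 (0.56, 0.80 and 1.19), the main cytoplasmic SR kinase, were called higher at all 3 times. The 24 h call of TNPO1 was lost without 24 h replicate 1 (0.33, adjusted p = 0.12 by edgeR), its value was 0.94 without replicate 2, and with library size alone it turned to -0.15. TNPO3, the importin known for SR proteins, was called at 12 h (0.48) and not at 6 h (0.36) or 24 h (-0.085). Its 24 h value was -0.62 without replicate 1 and 0.25 without replicate 2. SRPK3, a kinase known from muscle, was called lower at all 3 times but from few reads: 40, 49 and 53 counts in normoxia, 4, 6 and 7 at 6 h, 1, 8 and 7 at 12 h, and 1 and 0 at 24 h.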

How the data were processed

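Total RNA from RWPE1 cells was made into stranded libraries and sequenced as single-end reads. The table deposited by the authors holds raw read counts per gene for 60676 genes. The submitters' processing notes name FastQC, Trimmomatic, STAR, featureCounts and DESeq2 and the build hg38, without versions, and the strand and multiple-match settings of the counting are not given in the sources used here. Counting with strand ignored, or dropping reads with several matches, would change genes with antisense partners or copies.

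Counts were fitted in edgeR 4.0.16 (R 4.3.3) with TMM factors, after filterByExpr (minimum count 10, minimum total 15), with time point as the only term over all 11 libraries, and tested with the quasi-likelihood F test and Benjamini-Hochberg adjustment over 19981 genes. The standard error is the absolute log2 fold change over the square root of F. CPM are counts per 1000000 after TMM scaling, and the biological coefficient of variation was 19.6%. Replicates of 3, 3, 3 and 2 libraries and 27496009 to 49488345 counts per library set the precision. Tested on simulated counts, the script called 61, 59 and 45 of 100 genes changed by 1 on the log2 scale at 6, 12 and 24 h. Besides these, only 100 genes changed by 2 in each simulation, while 51.2% to 61.2% of genes were called in the real data. The adjustment was therefore stricter in the simulation, and its shares do not measure the power here.

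Full values are given for CLK and TRA2 genes, for the 4 highest and 4 lowest SRSF and HNRNP genes by mean log2 fold change over the 3 times, and for genes called between successive times with a change over 1. Of the other lists, up to 3 highest and 3 lowest called in 1 direction at all 3 times are named. Members, lists and tests were chosen with earlier results of these data known. Genes were placed with GENCODE annotation of GRCh38, a later release than the one behind the counts, and 60357 of 60676 identifiers matched. Alternatives were limma-voom 3.58.1 with and without sample quality weights, DESeq2 1.42.0, other scaling and filters, fits of 2 time points, a replicate block, and leaving out each library.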

Additional observations from a re-analysis of the deposited data

Results flagged for a closer look

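These differences between successive times in hypoxia passed the edgeR test, with p-values adjusted across all tested genes. Each is a test of 1 time against the next, where 4.95% of all genes were called from 6 to 12 h and 28.4% from 12 to 24 h. With only the 12 and 24 h libraries fitted, 0 of all tested genes were called between them.

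From 6 to 12 h, CLK1 was higher by 0.99 ± 0.20 on the log2 scale (adjusted p = 0.0192) and CLK4 by 0.67 ± 0.16 (adjusted p = 0.0337), and HNRNPUL2 had a log2 fold change of -0.68 ± 0.17 (adjusted p = 0.0437). The call of CLK1 was lost in 5 fits with 1 library left out, that of CLK4 in 8 (0.54 to 0.71) and that of HNRNPUL2 in 9 (-0.77 to -0.62).

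From 12 to 24 h, CLK1 was higher by 1.09 (adjusted p = 0.00447) and CLK4 by 0.53 (adjusted p = 0.0378). SRSF3 was higher by 1.03 (adjusted p = 0.00515), 0.55 without 24 h replicate 2, and SRSF6 by 0.68 (adjusted p = 0.0252), which was lost without that library (0.62) or without 12 h replicate 1 or 3 (0.67 and 0.61). HNRNPA1 (0.68, adjusted p = 0.0114), HNRNPA1L2 (0.75, adjusted p = 0.00449) and HNRNPA1L3 (0.63, adjusted p = 0.00992) were higher, with HNRNPA1 at 0.60 and HNRNPA1L3 at 0.56, not called, without 12 h replicate 2. HNRNPC (0.65, adjusted p = 0.0217) and HNRNPCL1 (0.79, adjusted p = 0.0278) were lost without 24 h replicate 2 (0.42 and 0.75) or without 12 h replicate 2 or 3, and HNRNPDL (0.56, adjusted p = 0.0218) without 24 h replicate 1 (0.29) or either of those 12 h libraries. HNRNPU (-0.47, adjusted p = 0.0364) and HNRNPUL1 (-0.60, adjusted p = 0.022) were lower, and both calls were lost without 24 h replicate 2 (-0.38 and -0.39), and also without 12 h replicate 2 or 3, and that of HNRNPU without 12 h replicate 1 or any 1 normoxic library as well. CLK4 was not called without 24 h replicate 1 (0.36), any 1 normoxic library, or 12 h replicate 2 or 3.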

How the results depend on the processing

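Of the log2 fold changes of genes given in the text, recomputed under other settings, 1824 kept direction and side of the threshold, 61 gained and 134 lost a call, and 71 changed sign. With 1 library left out these counts were 2355, 46, 132 and 30. The cause of these changes was not tested unless named. With library size alone, which lowers the median of all genes, 18, 12 and 17 of the 41 genes were called at 6, 12 and 24 h against normoxia. Of the 19981 tested genes that setting called 9843, 10560 and 13527. From 6 to 12 h, 18 of the 41 genes were called with sample quality weights, 8 with DESeq2, 6 without a filter and 6 with only the 2 time points. Over all genes tested in each fit the calls were 4489, 1919, 1674 and 1876, beside 989 in the main fit. Without 12 h replicate 1, 2 or 3 or 6 h replicate 1 or 2, the calls over all genes were 627, 125, 61, 242 and 151. Leaving out a library also changed the count of the 41 genes. It was 0 in edgeR without 12 h replicate 1, 2 or 3 or 6 h replicate 1 or 2, with 13, 11, 8, 8 and 13 genes at an unadjusted p under 0.05, and 12 without either 24 h library. From 12 to 24 h, quality weights gave 2, the 2 time points alone 0 (11 unadjusted), and leaving out a library 4 to 16 (4 and 5 without 12 h replicate 2 or 3). Leaving out a library gave 24 to 32, 21 to 29 and 26 to 31 calls against normoxia. Replicate numbers are shared between times. Libraries with the same number did not visibly deviate together (15 pairs, r from -0.156 to 0.207, 2 over 0.1). Those of unlike number gave r from -0.271 to 0.283 (30 pairs, 3 over 0.1). Deviations from means of 3 or 2 libraries cannot exclude a pairing, and the main fit used none. With a replicate block 1 of the 41 genes was called from 6 to 12 h, beside 510 of all tested genes, and the other counts stayed within 1.5 times. At 6 h library size alone turned HNRNPA3 (-0.13), HNRNPCL2 (-0.29), HNRNPD (-0.28) and HNRNPL (-0.072). At 12 h library size alone turned CLK1 (-0.44), CLK3 (-0.015), SRSF6 (-0.12), SRSF11 (-0.37), TRA2B (-0.13), HNRNPA0 (-0.38), HNRNPA3 (-0.12), HNRNPAB (-0.023), HNRNPCL2 (-0.091), HNRNPD (-0.21), HNRNPDL (-0.29), HNRNPH1 (-0.063) and HNRNPH3 (-0.20). At 24 h library size alone turned CLK3 (-0.20), CLK4 (-0.36), SRSF4 (-0.57), SRSF8 (-0.88), SRSF9 (-0.37), SRSF10 (-0.087), SRSF11 (-0.49), TRA2B (-0.25), HNRNPA0 (-0.86), HNRNPA2B1 (-0.061), HNRNPA3 (-0.32), HNRNPAB (-0.44), HNRNPD (-0.32), HNRNPDL (-0.12), HNRNPF (-0.23), HNRNPH1 (-0.66), HNRNPH2 (-0.75), HNRNPH3 (-0.77), HNRNPK (-0.074), HNRNPL (-0.41), HNRNPR (-0.47), HNRNPU (-0.59) and TNPO1 (-0.15). From 6 to 12 h library size alone turned HNRNPC (-0.041). From 12 to 24 h library size alone turned CLK3 (-0.18), SRSF2 (-0.25), SRSF8 (-0.26), SRSF10 (-0.39), SRSF11 (-0.12), TRA2A (-0.25), TRA2B (-0.12), HNRNPA0 (-0.48), HNRNPLL (-0.19) and HNRNPM (-0.45). Quality weights turned HNRNPCL2 (-0.066) at 6 h, CLK1 (-0.12) at 12 h, HNRNPLL (0.049) from 6 to 12 h and SRSF1 (0.022) and HNRNPA0 (-0.031) from 12 to 24 h. Limma-voom turned HNRNPCL2 (-0.013) at 6 h. DESeq2 turned SRSF1 (0.0068) from 12 to 24 h. Median-of-ratios factors turned SRSF1 (0.0068) from 12 to 24 h. At least 10 counts in every library turned HNRNPD (-0.049) at 6 h, CLK1 (-0.064), SRSF11 (-0.0089) and HNRNPA0 (-0.019) at 12 h and SRSF8 (-0.081) and HNRNPA0 (-0.016) at 24 h. No filter turned HNRNPCL2 (-0.0096) and HNRNPD (-0.0034) at 6 h, SRSF8 (-0.048) at 24 h and HNRNPA0 (-0.046) and HNRNPM (-0.035) from 12 to 24 h. Only the 2 time points turned CLK4 (0.0012) at 12 h. Leaving out 1 library turned the following values, given as ranges over all such fits. At 6 h these were HNRNPCL2 -0.26 to 0.21, HNRNPD -0.078 to 0.13 and HNRNPDL -0.086 to 0.036. At 12 h these were CLK1 -0.17 to 0.18, CLK4 -0.088 to 0.042 and HNRNPUL1 -0.13 to 0.00045. At 24 h these were SRSF8 -0.11 to 0.16, HNRNPA0 -0.33 to 0.42, HNRNPH2 -0.32 to 0.62, HNRNPH3 -0.11 to 0.38 and TNPO3 -0.62 to 0.25. From 6 to 12 h these were HNRNPLL -0.16 to 0.058. From 12 to 24 h these were CLK2 -0.35 to 0.19, CLK3 -0.38 to 0.54, SRSF1 -0.079 to 0.010, SRSF2 -0.29 to 0.69, SRSF10 -0.14 to 0.27, HNRNPA0 -0.40 to 0.36, HNRNPA2B1 -0.34 to 0.14, HNRNPM -0.25 to 0.28 and HNRNPUL2 -0.67 to 0.10. Few libraries per time limit these comparisons. On simulated counts, with far fewer changed genes than here, 45 of 100 genes changed by 1 (log2) were called at 24 h. That share does not measure the power in these data.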

Other observations

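Some transcripts that keep an intron or contain a poison exon are removed by nonsense-mediated decay. Genes of that pathway, 15 in number, were measured beside the splicing factors. At 6 h 9 were higher and 4 lower, at 12 h 8 and 6, and at 24 h 5 and 6, with median log2 fold changes of 0.61, 0.47 and -0.27. Of all tested genes 25.1%, 24.2% and 29.9% were higher and 27.7%, 27.1% and 31.3% lower. Scaling by library size alone gave 3 and 5, 1 and 6, and 0 and 10. The 24 h median was -0.30 without 24 h replicate 2 and -0.75 without replicate 1. EIF4A3, the helicase of the exon junction complex, was higher at all 3 times (1.85, 1.45 and 1.31), as were UPF2 (1.14, 1.25 and 0.88), which bridges UPF1 and the UPF3 proteins, and UPF3B (0.81, 0.67 and 1.45). The call of UPF2 at 24 h was lost without 24 h replicate 1 (0.24) and its value was 1.27 without replicate 2.

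CASC3, another exon junction component, was lower at all 3 times (-0.45, -0.36 and -0.89), as were UPF3A (-0.90, -0.93 and -0.53) and SMG9 (-1.45, -0.74 and -0.93), which regulates the kinase SMG1. UPF3A was at -0.40 and not called at 24 h without replicate 2. UPF3A and UPF3B are paralogs, with values of opposite sign at each time.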
